A study of Homo sapiens with 2 samples.

Results

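The 10 genes described here are the receptors of transforming growth factor beta (TGF-beta), TGFBR1 and TGFBR2, the signal carriers SMAD2, SMAD3 and SMAD4, the inhibitory SMAD6 and SMAD7, and the ID genes ID1, ID2 and ID3. They were taken as every probe set that the array annotation assigns to exactly 1 of these symbols, which gave 29 of the 54675 probe sets on the array. Gene expression had been measured in PC-3 cells, an androgen-independent human prostate cancer line that came from a metastasis to bone. One array held RNA of cells given a control shRNA vector (siCONTROL), and the other held RNA of cells given the vector against SHISA2 (siSHISA2), a gene described in the series as overexpressed in high-grade prostate cancer. The labels give no further treatment of either group, and they do not say how long the cells carried the vectors or how many cultures were pooled. Each group had 1 vector, so a second hairpin against SHISA2 is not part of the comparison. With 1 array per group there were no replicates, so no p-value was computed and no difference below was set against the spread between cultures.

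TGF-beta binds TGFBR2, which recruits and phosphorylates TGFBR1, and the activated TGFBR1 phosphorylates SMAD2 and SMAD3. These join the shared partner SMAD4 and move to the nucleus, where they regulate target genes. SMAD7 and SMAD6 act back on the receptors as inhibitors, with SMAD6 mainly in the branch of the bone morphogenetic proteins (BMPs), and both are themselves induced by the pathways they inhibit. The ID genes are targets of the BMP branch and encode helix-loop-helix proteins without a DNA-binding domain, which hold E proteins off DNA. In epithelial cells TGF-beta is known to repress ID genes, while BMPs induce them.

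The promoters of 4 genes are shown because SMAD6 had the largest difference downward among the 10 gene values and because the ID genes, which share their upstream signals, differed in direction. Each sequence is the 250 bases before the transcription start in the RefSeq promoter table of GRCh38.p14, read 5′ to 3′ on the gene's strand. They are chr15:66701986-66702235 on the plus strand for SMAD6, chr20:31605039-31605288 on the plus strand for ID1, chr2:8681806-8682055 on the plus strand for ID2 and chr1:23559502-23559751 on the minus strand for ID3. Capitals mark matches, on either strand, to GTCTAGAC (a palindrome known to bind SMAD3 and SMAD4), to CAGAC (the SMAD box), to GGCGCC (a GC-rich element of BMP-responsive genes) and to TATAAA (the TATA box). No motif here contains another one.
SMAD6: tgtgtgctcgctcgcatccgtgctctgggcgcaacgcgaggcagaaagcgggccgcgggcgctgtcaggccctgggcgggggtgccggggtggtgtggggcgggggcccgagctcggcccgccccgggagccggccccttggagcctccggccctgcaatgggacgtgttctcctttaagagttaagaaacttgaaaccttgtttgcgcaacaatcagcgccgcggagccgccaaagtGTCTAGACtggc
ID1: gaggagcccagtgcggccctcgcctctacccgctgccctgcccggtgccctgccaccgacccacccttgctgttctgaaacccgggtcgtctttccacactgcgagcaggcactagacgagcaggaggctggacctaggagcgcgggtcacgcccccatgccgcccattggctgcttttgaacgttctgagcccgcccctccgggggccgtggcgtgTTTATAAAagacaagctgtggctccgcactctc
ID2: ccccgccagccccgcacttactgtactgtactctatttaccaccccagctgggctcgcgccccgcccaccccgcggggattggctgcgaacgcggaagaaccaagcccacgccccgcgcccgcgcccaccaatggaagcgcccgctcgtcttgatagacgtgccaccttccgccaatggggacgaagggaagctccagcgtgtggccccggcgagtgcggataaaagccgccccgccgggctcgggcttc
ID3: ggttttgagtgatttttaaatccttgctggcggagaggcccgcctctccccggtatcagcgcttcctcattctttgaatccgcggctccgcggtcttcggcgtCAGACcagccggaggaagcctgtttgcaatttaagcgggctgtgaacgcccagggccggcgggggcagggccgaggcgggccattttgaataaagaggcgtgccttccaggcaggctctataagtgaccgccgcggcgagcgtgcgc

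The SMAD6 window held GTCTAGAC 12 bases before the start, which 0.18% of all 34788 different promoter windows of the same length also held. The 3 SMAD7 windows in the table lacked these letters, and 2 of them held CAGAC. Bases outside the 250-base windows were not searched, so the lack of a match holds for these windows and not for the whole SMAD7 promoter. ID3 had 1 CAGAC match, starting 147 bases before the start, and 38.01% of all windows had at least 1. ID1 had TATAAA, read on both strands in overlapping matches, as did 10.77% of windows. ID2 had none of the 4 motifs marked in capitals, and GGCGCC, present in 16.39% of windows, was in none of the 4 sequences printed. CANNTG (the E-box) and CCAAT (the CCAAT box) were also searched and are not marked. ID2 had 1 CANNTG match and 3 CCAAT matches, and ID1 had 1 CCAAT match. SMAD6 and ID3 had neither, and 61.79% of all windows had CANNTG and 32.02% had CCAAT. The BMP-responsive elements known for ID1 lie further upstream than these windows reach. All 10 genes had an entry in the promoter table, and no measurement of binding or chromatin was made in the series, so the matches describe the sequence only.

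The values are MAS5 signals, the array software's linear brightness per probe set, in which each array had been scaled to the same trimmed mean of 500.1. Probe sets with a signal over 47.9 in either array, the median of all signals, count as measured, and any signal under that floor was set to it. Of the 29 probe sets 20 were measured and 9 were under the floor in both arrays, and each of the 10 genes had at least 1 measured probe set. Bright means here that both signals were above 387.3, the 75th percentile, and 14 of the 20 were bright. The technical spread, taken from the log2 ratios of different probe sets of 1 gene, had an SD of 0.286 over 6428 genes and of 0.15 over 2827 genes with a pair of bright probe sets. It contains no variation between cultures. As RNA was taken from whole cultures, a lower signal in fewer of the cells and in all cells cannot be told apart. Levels are not compared between genes, since probe sets differ in brightness for the same amount of RNA.

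The knockdown target SHISA2 read 3536 with the control vector and 1506 with the SHISA2 vector (log2 ratio -1.23). The epithelial keratins KRT8 and KRT18 and the epithelial adhesion protein EPCAM were above the floor in both arrays, with summed signals of 20976.5 and 19836. KLK3, the gene of prostate-specific antigen, read 242 and 251. Of the markers of other cell types, the leukocyte gene PTPRC and the neuroendocrine genes CHGA and SYP had no probe set above the floor. Both endothelial markers were measured, with summed signals of 260.5 and 383 in the control and knockdown arrays, and so were 2 of 3 fibroblast markers. The summed signals of all 3 fibroblast markers were 850 and 631, nearly all of it from COL1A1, and LUM was under the floor. Both arrays held RNA of the PC-3 line, and the source of these marker signals was not tested.

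**Figure D1:**
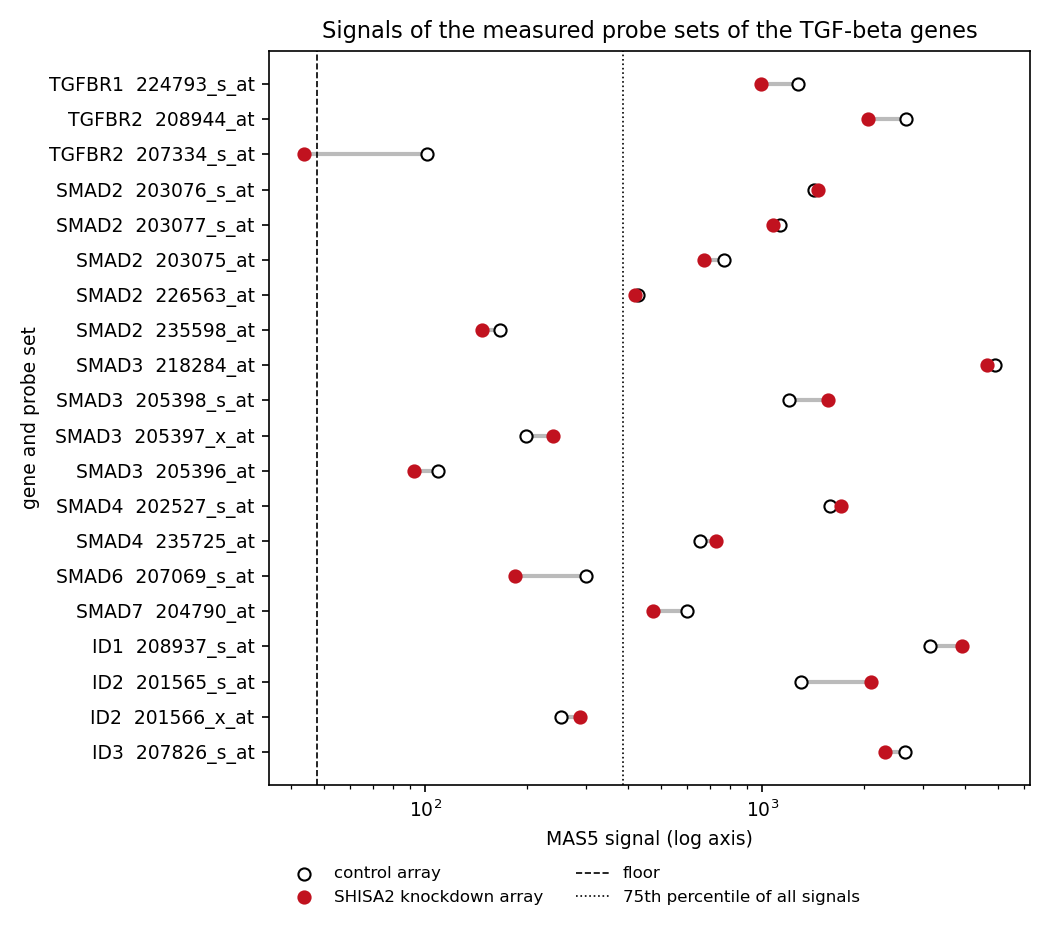
MAS5 signal (log axis) of each of the 20 measured probe sets in the control array (open circles) and the SHISA2 knockdown array (filled circles), with the floor of 47.9 dashed and the 75th percentile of 387.3 dotted. The knockdown signal is to the left of the control signal on every measured probe set of TGFBR1, TGFBR2, SMAD6 and SMAD7, and to the right on those of SMAD4, ID1 and ID2.

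Both TGF-beta receptors were lower in the knockdown array, by nearly the same ratio on their bright probe sets. TGFBR2, the ligand-binding receptor kinase, read 2677 with the control vector and 2061 with the SHISA2 vector on its bright probe set, 77.0% of the control signal (log2 ratio -0.38). TGFBR1, the kinase that passes the signal on, read 1281 and 994, 77.6% of the control (log2 ratio -0.37). Both ratios were about the size of a 1.3-fold difference and were 2.51 and 2.44 times the technical SD of bright probe sets. The other TGFBR2 probe set was dim, at 101 in the control array and 43.6, under the floor, in the knockdown array, which makes it at least 2.11-fold lower. The other TGFBR1 probe sets were under the floor in both arrays (4.9 and 33.4 on one, 18.3 and 39.2 on the other) and give no ratio. All 3 measured receptor probe sets thus lay below 0.

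The brightest probe sets of the SMADs that carry the TGF-beta signal lay close to 0, while a further bright probe set of SMAD3 did not. SMAD2 was read by 5 measured probe sets, of which 4 were below 0 and 1 above, with log2 ratios between -0.20 and 0.04. Its brightest probe set read 1428 with the control and 1469 with the SHISA2 vector, 103% of the control and well inside 1 technical SD. SMAD4, the shared partner, was slightly higher on both of its measured probe sets, at 1590 and 1713 (log2 ratio 0.11) and at 654 and 728 (0.15), and its other 3 were under the floor. The probe sets of SMAD3 lay on both sides of 0, as those of SMAD2 did, but further apart. Its brightest one read 4913 and 4635 (-0.08). The next read 1202 and 1569 (0.38), which is 2.56 times the bright technical SD in the upward direction. Of its dim probe sets, one read 199.5 and 239 (0.26) and the other 109.5 and 92.8 (-0.24). With values on both sides of 0, the probe sets of SMAD3 give no single direction for the gene. Taking the mean of all measured probe sets in place of the brightest turned SMAD2 to -0.09 and SMAD3 to 0.08.

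Both inhibitory SMADs were lower in the knockdown array. SMAD7, the inhibitor that brings ubiquitin ligases to TGFBR1, read 599 with the control vector and 476 with the SHISA2 vector on its only probe set, 79.5% of the control (log2 ratio -0.33, or 2.20 times the bright technical SD). SMAD6, the inhibitor of the BMP branch, read 300.3 and 184, 61.3% of the control (log2 ratio -0.71, 1.63-fold lower). That probe set is of the _s_at kind, which can match several transcripts. Its ratio was 2.47 times the technical SD over genes of all brightness. That SD includes bright pairs, whose own SD was smaller (0.15), and an SD for dim pairs alone was not computed. The other 3 SMAD6 probe sets were under the floor in both arrays (44.1 and 40.9, 5.3 and 2.7, 3.9 and 18.6), so the SMAD6 value rests on 1 dim probe set.

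The 3 ID genes split, with ID2 and ID1 higher and ID3 lower in the knockdown array. ID2, an inhibitor of E proteins that also binds the retinoblastoma protein, read 1303 with the control vector and 2107 with the SHISA2 vector on its bright probe set, 1.62-fold higher (log2 ratio 0.69). The difference was 4.61 times the bright technical SD, more than for any other bright probe set of the 10 genes. That probe set is of the _s_at kind, as are the only measured ones of TGFBR1, ID1 and ID3, and without _x_at and _s_at probe sets the count of probe sets at least 1.5-fold higher falls from 1 to 0. A dimmer ID2 probe set of the _x_at kind read 253 and 287 (log2 ratio 0.18). A probe set annotated to both ID2 and its copy ID2B, left out by the rule for choosing the probe sets, read 521 and 558 (0.10). The probe sets for ID2 thus had 1 direction but sizes from 0.10 to 0.69, and signals of ID2 and ID2B cannot be told apart on probes that both share. ID1 read 3142 and 3919 on its only probe set, 1.25-fold higher (log2 ratio 0.32, 2.12 times the bright technical SD). ID3 read 2661 with the control vector and 2311.5 with the SHISA2 vector, 86.9% of the control (log2 ratio -0.20, 1.35 times that SD).

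**Figure D2:**
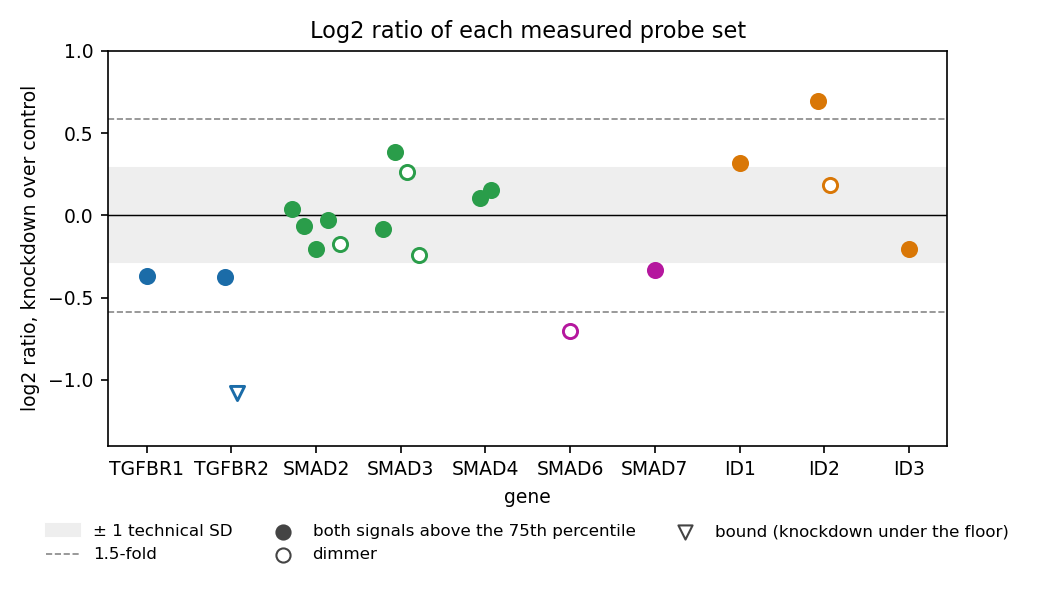
Log2 ratio (knockdown over control) of each measured probe set by gene, filled where both signals are above the 75th percentile and open where dimmer; the triangle is a bound, the grey band is 1 technical SD (0.286) on either side of 0 and dashed lines mark 1.5-fold. ID2 has the only probe set above the upper line, SMAD6 and the dim TGFBR2 probe set lie under the lower line, and the SMAD3 probe sets fall on both sides of 0.

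A difference of at least 1.5-fold, a size of 0.585 on the log2 scale that was not a test, was reached by 1 of the 20 measured probe sets upward (ID2) and by 2 downward (SMAD6 and the dim one of TGFBR2). Among all 24507 measured probe sets with 1 gene name, 6.05% were that far above the control and 4.42% that far below it. At 2-fold, 0 of the 20 were higher and 1 was lower (TGFBR2), beside 1.08% and 0.673% of all measured probe sets, and at 1.2-fold 3 were higher and 5 lower, beside 19.3% and 17.0%. Among the 14 bright probe sets, 1 was at least 1.5-fold higher, where the share over all 11812 bright ones was 0.855%, and 0 were lower, where it was 1.24%. At a 1.2-fold size, 3 of the 14 were higher (ID2, ID1 and 1 of SMAD3) and 3 lower (TGFBR1, TGFBR2 and SMAD7), beside 8.25% and 10.5% of all bright probe sets. Over the 10 gene values, each taken from a gene's brightest measured probe set, 4 were above 0 and 6 below, with a median of -0.14. Over all 12931 measured genes 47.8% were below 0 and the median was 0.01.

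**Figure D3:**
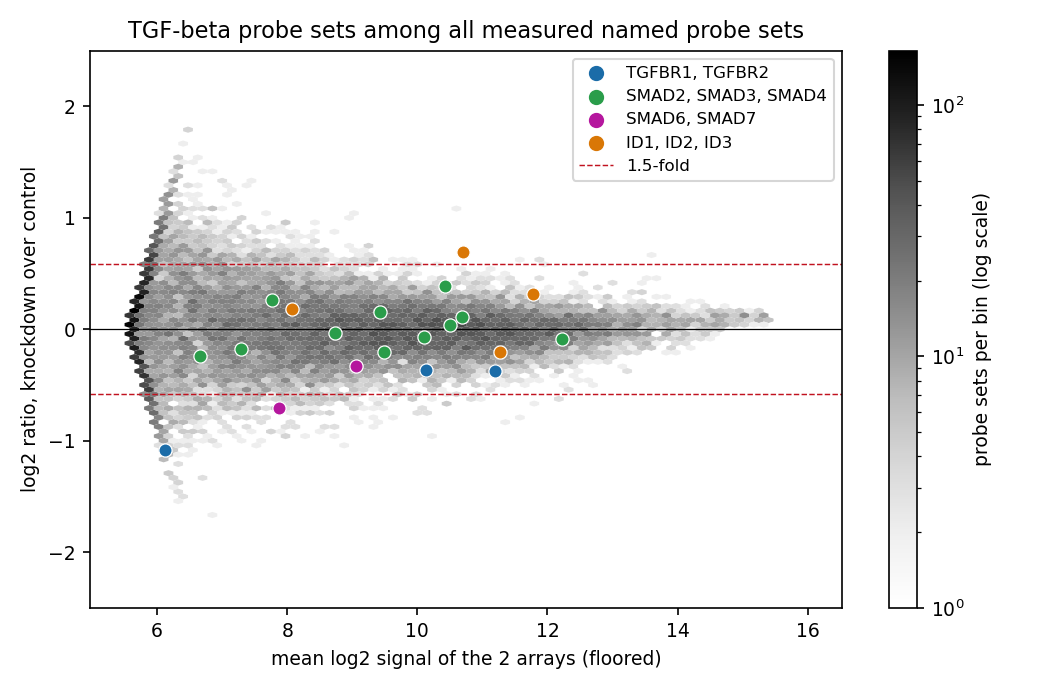
Log2 ratio (knockdown over control) against mean log2 signal for all 24507 measured named probe sets (grey bins, shaded by number on a log scale) and for those of the 10 genes (coloured by role); dashed lines mark 1.5-fold. The scatter narrows toward bright signals, and the bright ID2 probe set at 0.69 lies outside the 1.5-fold lines where 0.855% of bright probe sets are that far above 0.

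Of the wider pathway, 123 genes in 9 lists were looked up by role, the 10 genes above left out, and 84 were measured. Of these 31 were above 0 and 53 (63.1%) below, with a median of -0.10, and 5 were higher and 9 lower by at least 1.5-fold. Over all measured genes 47.8% were below 0 and the median was 0.01, and the shares at that size were 5.01% higher and 3.77% lower. The median of the 84 was not recomputed with the probe sets of each gene averaged. The lists describe these 2 arrays and were not tested as sets.

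Among the other receptors and coreceptors, 5 of 12 were above 0 and the median was -0.08. The coreceptor TGFBR3, or betaglycan, which presents TGF-beta to TGFBR2, was lower on both of its probe sets, at 675 with the control vector and 391 with the SHISA2 vector on the brighter one (log2 ratio -0.79, and -0.98 on the other). BAMBI, a pseudoreceptor without kinase activity that is induced by BMP and TGF-beta signals, was on the opposite side at 117 and 210.5 (0.85). The BMP coreceptor RGMA rested on a control signal under the floor and one of 66.8 with the SHISA2 vector, a difference of at least 1.39-fold. BMPR2, the type II receptor of the BMPs, read 2465 and 2161 (-0.19), and all 5 of its measured probe sets lay between -0.24 and -0.05.

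The other SMADs carry BMP signals. SMAD9 read 262 and 145 on its only measured probe set (-0.86), whereas SMAD1 read 1783 and 1871 (0.07) and SMAD5 2712 and 2541 (-0.09). SMAD9 thus stood apart from its partners on a probe set that was not bright.

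Of the ligands, 8 of 13 in the TGF-beta and activin list and 6 of 15 in the BMP and growth differentiation factor list were measured, with medians of -0.09 and -0.29. GDF15, a stress-induced member, read 24980 and 23507 (-0.09). GDF11 had log2 ratios from -0.27 to 0.83 on its 3 measured probe sets, the brightest at the lower end. TGFB2 was at least 1.30-fold lower from a control signal of 62.4, and the activin and inhibin subunit INHBB read 140 and 158 (0.17). BMP6 was lower at 1263 and 826 (-0.61), BMP8B at 260 and 161 (-0.69), and GDF9 was at least 1.62-fold higher, to 77.5.

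Secreted antagonists of BMPs and activins had 2 of 6 members above 0 and a median of -0.29, and 1 of the 6 was higher and 2 were lower by at least 1.5-fold, beside 5.01% and 3.77% of all measured genes. NOG, or noggin, read 320 with the control and 193 with the SHISA2 vector (-0.73), the follistatin-like FSTL1 2630 and 1697 (-0.63), and NBL1, a BMP antagonist of the DAN family, 819 and 1272 (0.63). TWSG1, a BMP-binding protein, read 6940 and 6034 (-0.20). The latency and activation list, some of whose proteins store TGF-beta in the matrix, had a median of -0.17 with 2 of 7 above 0. LTBP1 was lower on both of its probe sets (-0.42 and -0.39), LTBP4 read -0.27 on the brighter and 0.23 on the dimmer one, the microfibril protein FBN1 read 702 and 590 (-0.25), and THBS1, an activator of latent TGF-beta, read 1256 and 1388 (0.15).

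On their brightest probe sets, regulators and partners of SMADs were close to 0, with 9 of 20 above it and a median of -0.02. All measured probe sets of the list ran from -0.72 to 2.08, and averaging them by gene gave a median of 0.065. The exception among the brightest ones was ZFYVE9, also called SARA, which anchors SMAD2 and SMAD3 at the receptor. It read 271 and 420 (0.63, and 0.16 on its other probe set). The ubiquitin ligase SMURF2, a partner of SMAD7, read 8813 and 11066 (0.33), but its 4 probe sets ran from -0.17 to 0.33. ZFYVE16 read 1115 and 934 (-0.26) and STRAP 14542 and 14979 (0.04, with 1.36 on its dimmer probe set). Of ID4 and the E proteins that ID proteins bind, ID4 was below 0 on all 3 of its measured probe sets, between -1.03 and -0.40, with 231 and 175 on the brightest. The E proteins were near 0 on their brightest probe sets, with TCF3 at 0.11, TCF12 at -0.02 and TCF4 at -0.19. Their other probe sets lay further out. The 9 measured ones of TCF3 ran from -0.96 to 0.32, the 7 of TCF4 from -0.70 to 0.02 and the 2 of TCF12 from -0.33 to -0.02.

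Known TGF-beta target genes went both ways. Of 18 measured, 7 were above 0 and 11 below, with a median of -0.11, which turned to 0.09 when all measured probe sets of a gene were averaged. At one end stood CDKN2B, the p15 inhibitor of G1 cyclin-dependent kinases, at 943 with the control and 1899 with the SHISA2 vector (1.01). At the other end stood the metalloprotease ADAM19 at 173 and 75 (-1.21, and -0.37 on its other probe set) and fibronectin, FN1, at 442 and 225 (-0.98, with probe sets from -1.28 to 0.18). CCN1, a matrix-associated signalling protein, read 23353 and 27362 (0.23). The only probe set of TGFBI was under the floor in both arrays.

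**Figure D4:**
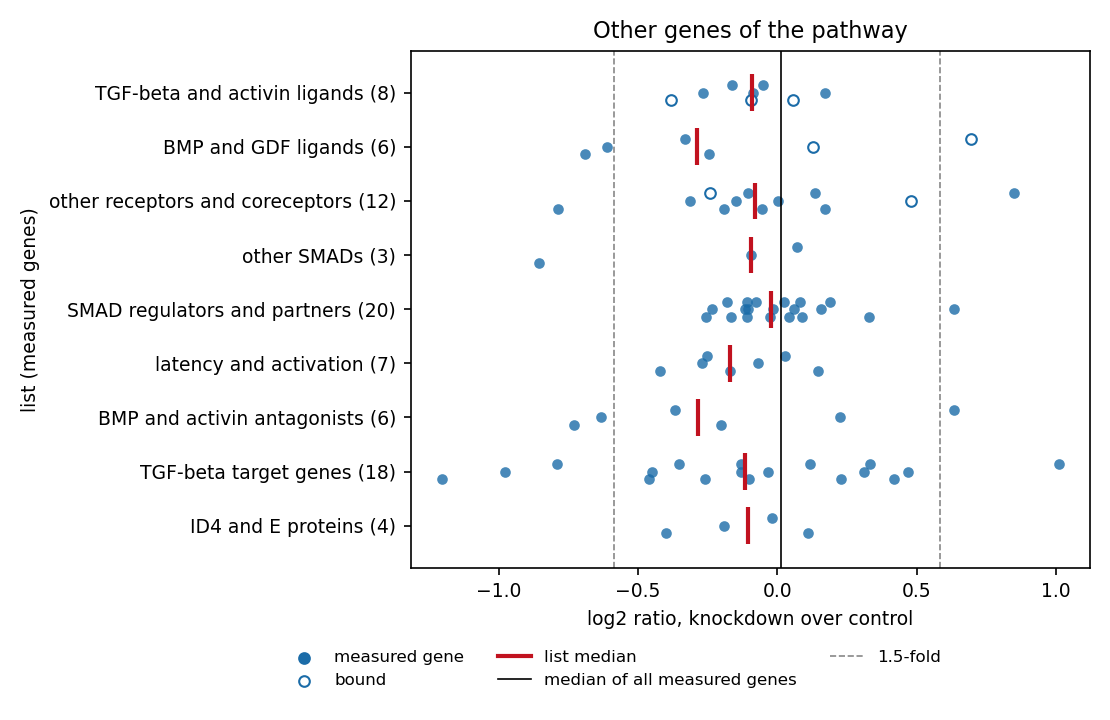
Log2 ratio (knockdown over control) of each measured gene in 9 lists of pathway genes, with open circles for bounds, red bars for list medians, the solid line at the median of all measured genes (0.01) and dashed lines at 1.5-fold. List medians lie between -0.29 and -0.02, with single genes on both sides of 0 in every list.

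The directions of the receptors, the inhibitory SMADs, SMAD4 and the ID genes did not depend on how the arrays were scaled. After median centring, quantile normalization or removal of a loess trend, TGFBR1 lay between -0.39 and -0.35, TGFBR2 between -0.40 and -0.36, SMAD6 between -0.73 and -0.72, SMAD7 between -0.35 and -0.32, ID1 between 0.30 and 0.33, ID2 between 0.67 and 0.71 and ID3 between -0.23 and -0.19. SMAD2, SMAD3 and SMAD4 stayed within 0.13 of 0 in these 3 settings. Averaging all measured probe sets took ID2 to 0.44, under the 1.5-fold size, and TGFBR2 to -0.73, past it.

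**Figure D5:**
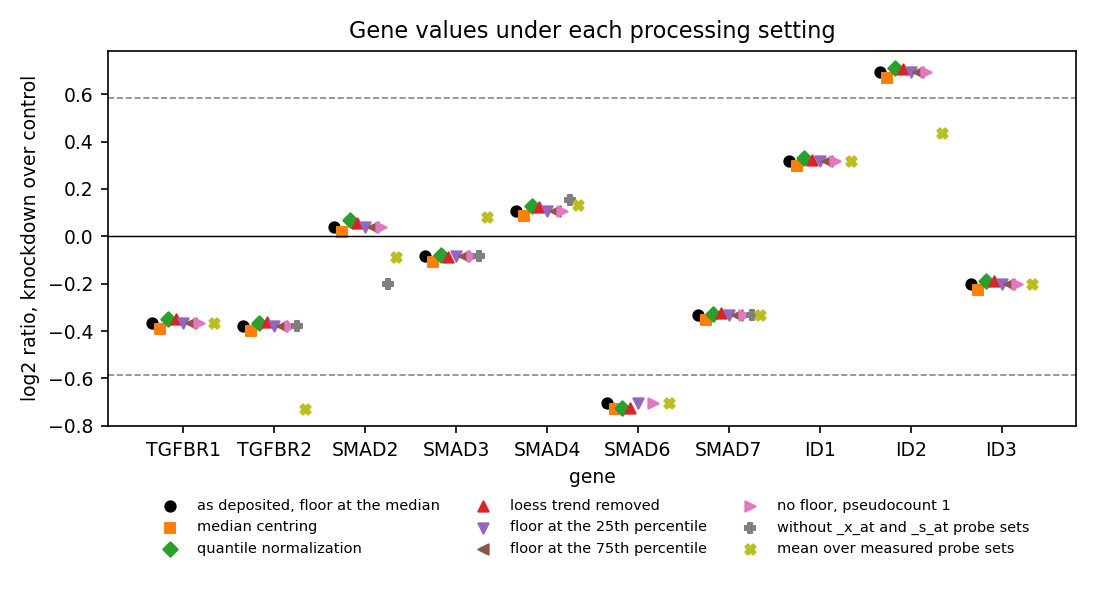
Log2 ratio (knockdown over control) of each gene as deposited (black) and under 8 other processing settings (coloured symbols), with dashed lines at 1.5-fold; a symbol is missing where the gene was not measured in that setting. The scalings lie close together for each gene, and the mean over probe sets moves ID2 to 0.44 and TGFBR2 to -0.73.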

How the data were processed

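RNA was measured on 2 arrays, 1 per group, labelled from 250 ng of total RNA per the labels' protocols. The deposited values are intensities on a linear scale, and the submitters' processing notes name MAS5 as the tool, without a version. MAS5 signals near background are noisy. Of the 54675 probe sets, 62 controls were left out. The array annotation gives 41097 probe sets 1 gene symbol and 1801 several, and lists no gene for 11777. Gene identifiers of 41043 matched the RefSeq gene table of GRCh38.p14, used for names.

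Here signals under the floor (47.9, the 50th percentile) were raised to it, and log2 ratios of knockdown over control were taken without further scaling, with Python 3.11.15, numpy 2.4.6 and pandas 2.3.3. A gene's value is its measured probe set of highest mean log2 signal. A ratio with 1 signal at the floor is a bound and written as at least. For the technical SD, the log2 ratios of a gene's 2 brightest measured probe sets were subtracted, and the SD of these differences over genes was divided by the square root of 2. The 1.5-fold size is no test, and 1 array per group limits the precision. Genes named are all probe sets of the 10 genes and, per list, the up to 3 members with the largest log2 ratio in size and the brightest one. TGFBI was named after seeing that it had no value. The members and lists were chosen with earlier results of these data known. The procedure was tested on simulated data with planted differences of at least 2-fold in genes well above the floor. Smaller planted differences, and those in dim genes, were not simulated.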

Additional observations from a re-analysis of the deposited data

How the results depend on the processing

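Across the scalings, floors, probe-set choices and thresholds listed here, each gene value other than those of SMAD2 and SMAD3 kept its sign wherever it was measured. SMAD2 ran from -0.20 without _x_at and _s_at probe sets to 0.07 after quantile normalization, and SMAD3 from -0.11 to 0.08. TGFBR2 moved to -0.73 as the mean over probe sets, through its bound. Without _x_at and _s_at probe sets 5 of the 10 genes were measured, not TGFBR1, SMAD6 or the ID genes, and with the floor at the 75th percentile (387.3) SMAD6 was not. The median over the 10 genes stayed between -0.20 and -0.08.

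The count of probe sets at least 1.5-fold higher (1 of 20) became 4 of 28 with the floor at the 25th percentile (11.3). The added ones were dim probe sets of TGFBR1 (4.9 and 33.4, 18.3 and 39.2) and SMAD6 (3.9 and 18.6). They lay opposite to the values of these genes, and the share over all probe sets at that floor was not computed. The higher count was 0 without _x_at and _s_at probe sets, and 0 and 3 at thresholds of 2-fold and 1.2-fold. The count at least 1.5-fold lower (2 of 20) became 3 of 28 with the floor at the 25th percentile and 0 with it at the 75th. It was 0 without _x_at and _s_at probe sets, and 1 and 5 at the other thresholds. List medians moved for BMP and growth differentiation factor ligands to -0.41 (25th percentile floor) and -0.61 (75th, 1 gene left), for antagonists to -0.020 (75th, 4 genes left), for the latency list to 0.028 (no _x_at or _s_at, 3 genes left), and, as means over probe sets, for SMAD regulators to 0.065 and for target genes to 0.094. The other list values moved by less than the technical SD divided by the square root of the number of genes. No paired analysis was possible because each group has 1 array. Signal over background limits the 6 measured probe sets that were not bright, among them those of SMAD6 and the dim one of TGFBR2.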
